A study of Caenorhabditis elegans with 6 samples.

Results

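The vacuolar H+-ATPase (V-ATPase) is a rotary pump that uses ATP to move protons across membranes, and the genes described here encode the subunits of its cytosolic V1 sector in Caenorhabditis elegans. They are the 8 genes vha-8 to vha-15, taken by gene name from the deposited table, and all 8 were found among its 46748 genes. Among these 8, each V1 subunit type, A to H, has a single gene: vha-13 (A), vha-12 (B), vha-11 (C), vha-14 (D), vha-8 (E), vha-9 (F), vha-10 (G) and vha-15 (H). Further worm genes for B and H, which are not among the 8, are described below. Apart from their names and roles no threshold on a value chose them, but they were proposed with the counts of these 6 libraries and the fold changes of the strain comparisons known. The counts of calls below are therefore a description of these libraries and support nothing further. All 8 passed the filter on low counts that left 15404 genes.

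V1 binds and splits ATP in a ring of alternating A and B subunits, and the turning of a central stalk drives proton transport through the V0 sector in the membrane. V1 can come off V0, which stops both ATP use and proton flow. In worms the pump acidifies lysosomes, endosomes and yolk-bearing vesicles, and it is abundant in the gut, the epidermis and the excretory canal cell, where it also takes part in the balance of ions and water.

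The 6 libraries hold messenger RNA of whole gravid adults from 3 strains, with 2 libraries a strain, grown at 20 °C on OP50 bacteria, with 100 picked worms a library. Worms of SIN (strain OD1175) and WT (strain OD1463) were homozygous for the allele csr-1(tm892), which is a deletion in the gene of the germline Argonaute CSR-1, and were likewise homozygous for their transgenes; they were picked by their movement from the offspring of mothers that were heterozygous for that allele over a balancer. As known for the published strains, SIN makes a form of CSR-1 that cannot cut its target RNAs and WT the normal form; the labels give only the abbreviations, and neither the transgenes nor their promoters are named there. The common laboratory strain N2 has neither the deletion nor a transgene. The comparisons ask how transcript levels differ between the strain whose CSR-1 lacks cutting activity and the normal transgene strain (SIN versus WT), against the strain without a transgene (SIN versus N2), and between the normal transgene strain and N2 (WT versus N2). SIN and WT also differ in the level of csr-1 transcript, given below. This cannot be told apart from the loss of cutting in SIN versus WT. Whether the 2 replicates of a strain were grown as separate cultures is not said in the labels, so the p-values reflect the spread among these libraries alone, and part or all of it may be technical.

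The libraries held 33739391 to 44962816 counts. The csr-1 transcript had 2913 and 3308 CPM (read counts relative to the TMM-scaled size of the library) in SIN, 662 and 636 CPM in WT worms and 445 and 476 CPM in N2 (SIN versus WT, log2 fold change 2.26 ± 0.12, adjusted p = 0.000223); reads of a transgene and of the chromosomal gene were not separated. N2 replicate 1 stood apart from N2 replicate 2: across genes the log2 CPM of the N2 libraries correlated with Pearson's r = 0.971, against 0.990 for the SIN libraries and 0.989 for the WT libraries. Results that rest on N2 are given below without each of its libraries. In whole worms, fewer cells of a type and less RNA per cell cannot be told apart.

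The 8 genes lie apart from each other in the genome (build WBcel235, the build of the submitters' processing notes and of the Ensembl annotation used for positions). The A gene vha-13 is on chromosome V (14351709 to 14354422, plus strand) and the B gene vha-12 on chromosome X (4191094 to 4193144, plus strand). The stalk genes vha-14 and vha-9 are on chromosome III (9508100 to 9509757, plus strand) and chromosome II (10303050 to 10303713, minus strand). The peripheral stalk genes vha-8 and vha-10 are on chromosome IV (6791074 to 6792455, plus strand) and chromosome I (5609341 to 5610270, minus strand). The C gene vha-11 is on chromosome IV (2307815 to 2314567, minus strand), 892 bases downstream of vha-3, which encodes a proteolipid of the V0 ring. The H gene vha-15 is on chromosome X (2237911 to 2240255, plus strand). Exons overlap another gene only for vha-13, which shares 13 exonic bases with Y49A3A.3 on the same strand; a noncoding gene, Y38F2AL.11, with at most 2 reads in any library, lies on the other strand of vha-11 without sharing exonic bases.

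In SIN versus WT, all 8 V1 genes were lower in both SIN libraries than in both WT libraries, by 1.27-fold to 1.77-fold. The B subunit gene vha-12 had the largest difference and the F subunit gene vha-9 the smallest. SIN libraries lay below WT libraries without overlap for 35% of all tested genes.

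The catalytic head is built from the A and B subunits. For vha-13, whose A subunit holds the site that splits ATP, SIN replicates 1 and 2 had 348 and 409 CPM, against 581 and 572 CPM in WT worms and 465 and 603 CPM in N2. It fell 1.52-fold in SIN versus WT (log2 fold change -0.61 ± 0.15 SE, adjusted p = 0.0303, quasi-likelihood F test of edgeR, Benjamini-Hochberg adjustment over all tested genes, as for the other adjusted p). For vha-12, whose B subunit alternates with A in the ring, SIN had 169 and 210 CPM, against 343 and 331 CPM in WT worms and 269 and 342 CPM in N2. Both SIN libraries were below all 4 others. This gene fell 1.77-fold (-0.83 ± 0.15, adjusted p = 0.0136), and only 5.64% of all tested genes had a more negative fold change.

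The central stalk, which turns inside the head, contains the D and F subunits. The D gene vha-14 had 178 and 192 CPM in SIN, 244 and 259 CPM in WT worms and 181 and 265 CPM in N2. The F gene vha-9 had 131 and 129 CPM in SIN, 164 and 166 CPM in WT worms and 120 and 173 CPM in N2. For both genes SIN was below WT, while N2 replicate 1 lay within or below the SIN range. Neither passed the test in SIN versus WT, with log2 fold changes of -0.44 ± 0.18 for vha-14 (adjusted p = 0.115) and -0.34 ± 0.16 for vha-9 (adjusted p = 0.175).

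The peripheral stalks, which hold the head still while the rotor turns, are made of E and G subunits. The E gene vha-8 had 263 and 288 CPM in SIN, 418 and 421 CPM in WT worms and 297 and 419 CPM in N2. It fell 1.52-fold in SIN versus WT (-0.61 ± 0.16, adjusted p = 0.0403). The G gene vha-10 had 154 and 169 CPM in SIN, 230 and 245 CPM in WT worms and 157 and 240 CPM in N2. The groups SIN and WT did not overlap, but the difference of -0.55 ± 0.19 did not pass (adjusted p = 0.0848).

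The C and H subunits govern the joining of V1 to V0: C links the peripheral stalks to the membrane sector, and H is known to hold back ATP splitting in V1 that has come off. The C gene vha-11 had 141 and 154 CPM in SIN, 214 and 214 CPM in WT worms and 161 and 234.65 CPM in N2. Its difference of -0.54 ± 0.17 in SIN versus WT did not pass (adjusted p = 0.0667). The H gene vha-15 had 107 and 131 CPM in SIN, 172 and 175 CPM in WT worms and 145 and 191 CPM in N2. It fell 1.46-fold (-0.54 ± 0.16, adjusted p = 0.0486).

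**Figure D1:**
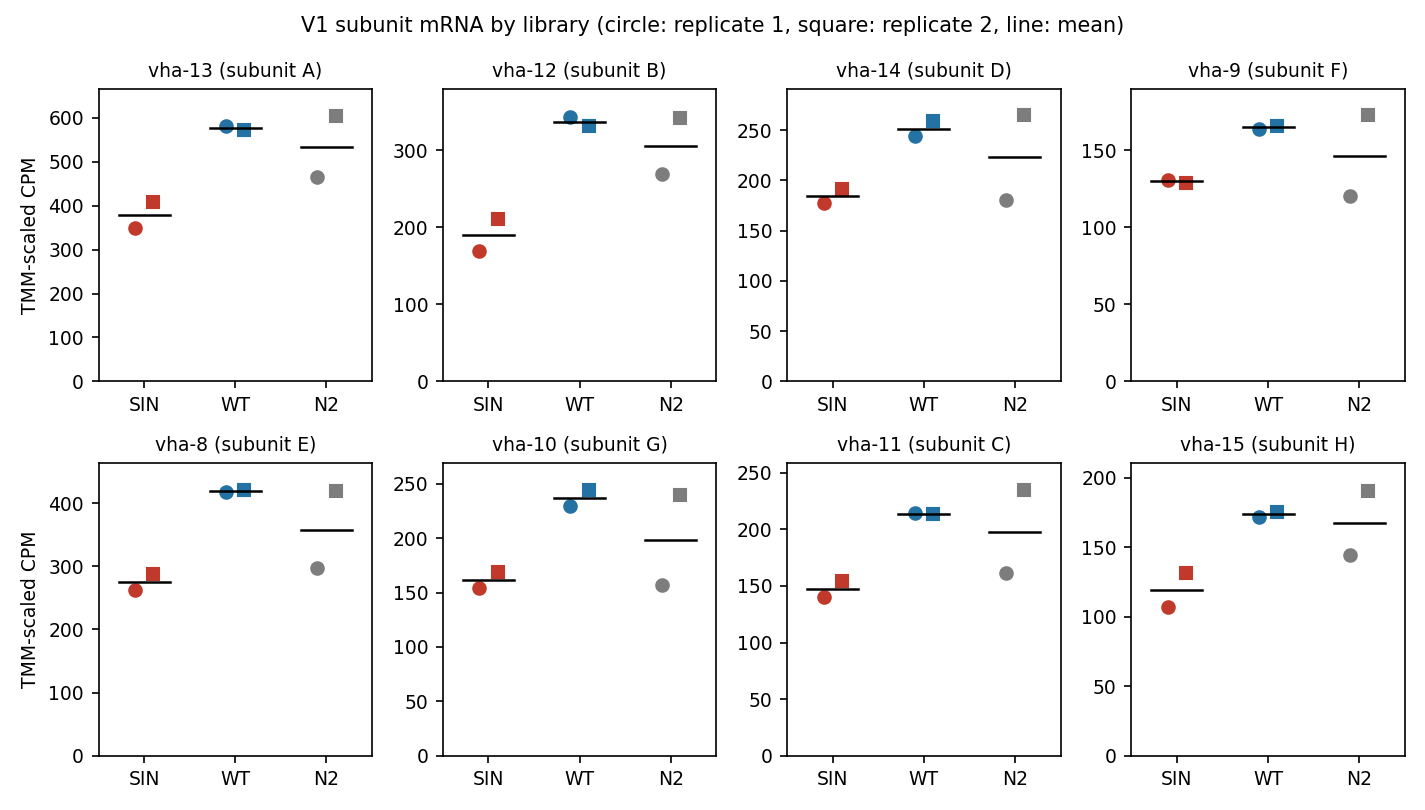
Level of each V1 subunit mRNA in TMM-scaled CPM (vertical axes, from 0) in SIN, WT and N2; circles are replicate 1, squares replicate 2 and lines the mean of 2 libraries. In all 8 panels both SIN points lie below both WT points, and N2 replicate 1 lies below N2 replicate 2.

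Summed over the genes, the V1 transcripts took 1491 and 1683 CPM in SIN, 2366 and 2382 CPM in WT worms and 1795 and 2468 CPM in N2. In SIN versus WT, 4 of the 8 fell (vha-8, vha-12, vha-13 and vha-15), 0 rose and 4 did not pass; over all 15404 tested genes 13.3% fell, 12.1% rose and 25.5% did either. The median log2 fold change of the 8 was -0.55, beside 0.04 over all tested genes. Upper-quartile scaling moved that median of all genes to 0.17 and left only vha-12 past the test (adjusted p = 0.032), with log2 fold changes of all 8 still negative (-0.69 to -0.21); relative to all genes the median of the 8 was -0.58 with that scaling and -0.59 with TMM. Of all calls 47.7% were rises with TMM and 65.5% with upper-quartile scaling, and in SIN versus N2 these shares were 48.2% and 59.6%.

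The calls depended on which libraries were in the fit. None of the 4 passed without SIN replicate 1 (adjusted p = 0.100 to 0.252), SIN replicate 2 (0.0630 to 0.158), WT replicate 1 (0.0974 to 0.186) or WT replicate 2 (0.0990 to 0.219), fits in which the lone library of a group is assumed to vary like the others; those 4 fits called 2.22% to 3.79% of all genes. All 8 passed without N2 replicate 1 or without N2 replicate 2, fits that called 41.9% and 41.8% of all genes. Log2 fold changes stayed negative for all 8 genes under each of the 12 alternatives. Over these alternatives they ran from -1.001 to -0.68 for vha-12 (adjusted p from 9.41e-11 to 0.100) and from -0.39 to -0.21 for vha-9 (0.00237 to 0.412).

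The authors' deposited table lists lower levels in SIN than in WT for all 8 genes, with adjusted p under 0.05 for 6 of them. Over the 15160 genes with an adjusted p in the authors' deposited table, 16.9% are lower at that threshold. Its log2 fold changes run from -0.80 for vha-12 (authors' deposited table, adjusted p = 1.58e-05) to -0.34 for vha-9 (adjusted p = 0.152), and the other gene above the threshold in the authors' deposited table is vha-14 (adjusted p = 0.0615).

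**Figure D2:**
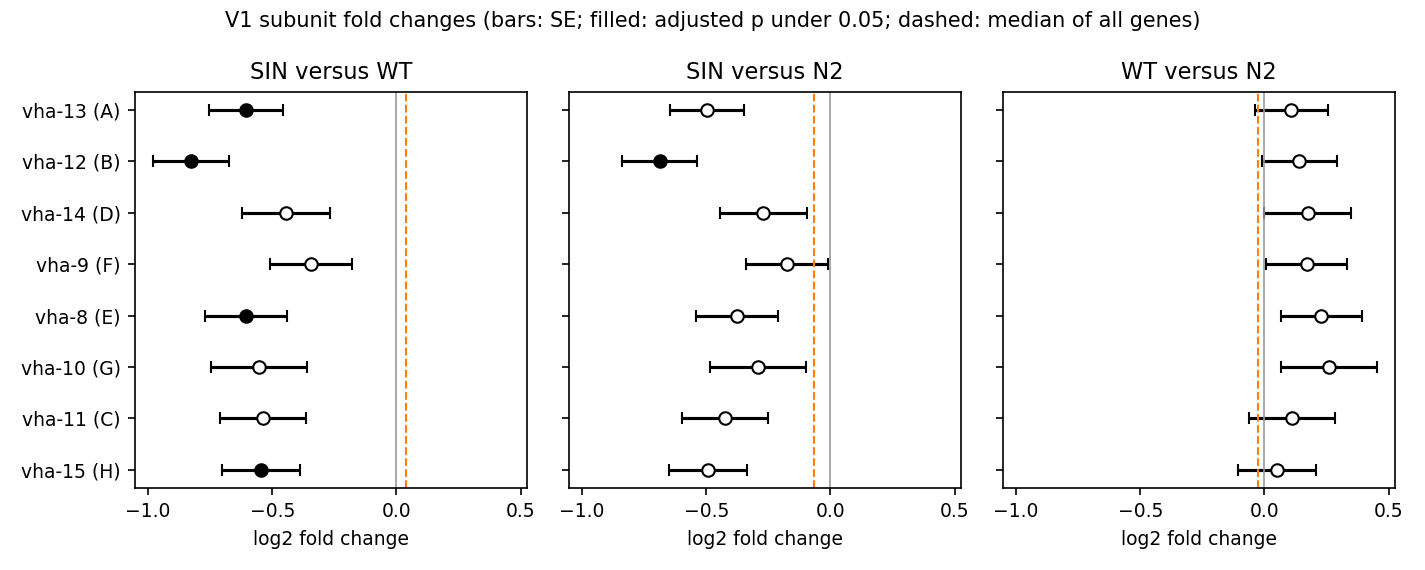
Log2 fold change of each V1 gene (horizontal axis; bars, SE of the fit) in SIN versus WT, SIN versus N2 and WT versus N2; filled points have adjusted p under 0.05 and the dashed line is the median of all tested genes. Points of the SIN versus WT panel lie between -0.83 and -0.34, and 4 are filled; 1 is filled in SIN versus N2 and 0 in WT versus N2.

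Against N2, vha-12 fell in SIN and the other 7 V1 genes did not pass. Both comparisons of SIN share the SIN libraries, so they are not separate evidence. The log2 fold change of vha-12 was -0.69 ± 0.15 (adjusted p = 0.0227). Those of vha-13 and vha-15 were -0.50 ± 0.15 and -0.49 ± 0.16 (adjusted p = 0.0521 and 0.0631), and the others ran from -0.43 for vha-11 to -0.18 for vha-9. Over all tested genes 13.3% fell, 12.3% rose and 25.6% did either in this comparison. Both SIN libraries were below both N2 libraries for 5 of the 8 genes, against 33.1% of all genes; vha-9, vha-10 and vha-14 overlapped.

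The N2 libraries differed from each other for every V1 gene. N2 replicate 1 was below N2 replicate 2 for all 8, by 0.34 (vha-12) to 0.61 (vha-10) on the log2 scale, beside 49.1% of all genes with that order and a median difference of 0.01 over all genes. N2 replicate 2 was above both SIN libraries for all 8 genes, and N2 replicate 1 was above both for 5, between them for 2 and below both for 1. Without N2 replicate 1 all 8 passed as lower in SIN than in N2, with 33.8% of all genes called. Without N2 replicate 2, with 37.3% of all genes called, the genes that passed were vha-12 and vha-13, and vha-9, vha-10 and vha-14 had log2 fold changes of 0.11, 0.04 and 0.03. The call of vha-12 was lost without SIN replicate 1 (adjusted p = 0.148), SIN replicate 2 (0.0717) or WT replicate 2 (0.0808), and with only the SIN and N2 libraries (0.0802); over its alternatives it ran from 2.80e-07 to 0.148.

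In WT versus N2, 0 of the 8 V1 genes passed, at an adjusted p under 0.05 with edgeR or DESeq2 or at an unadjusted p under 0.05 with edgeR. Over all genes 17 were called by edgeR, 0.11%, and 20.1% had an unadjusted p under 0.05. The log2 fold changes were small and positive, from 0.05 ± 0.16 for vha-15 to 0.26 ± 0.19 for vha-10, and that of vha-15 was -0.0014 with upper-quartile scaling. Both WT libraries were above both N2 libraries for 0 of the 8, against 25.4% of all genes. For 5 of the 8 genes both WT libraries lay between the N2 libraries. N2 replicate 1 was below both WT libraries for all 8 genes. Without N2 replicate 2, 6 of the 8 were higher in WT than in N2, vha-12 and vha-15 not passing, in a fit that called 26.0% of all genes in either direction. Without N2 replicate 1, which called 4.02% of all genes, 0 of the 8 passed and 7 of the 8 fold changes were negative.

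**Figure D3:**
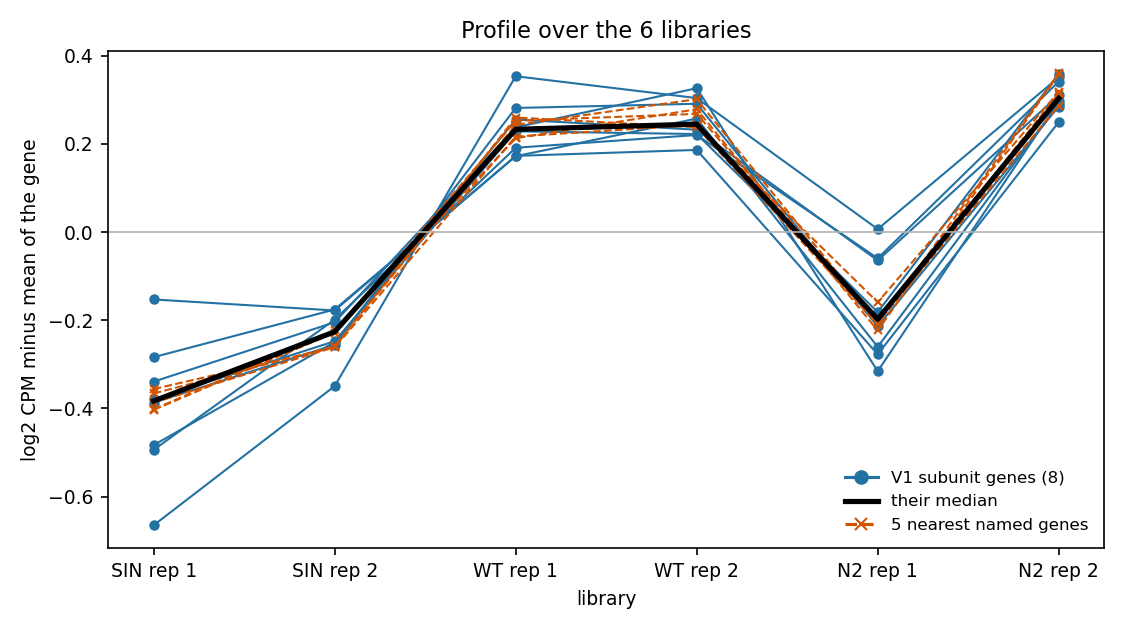
Log2 CPM of each gene minus its own mean over the 6 libraries (vertical axis), by library (horizontal axis); blue lines are the 8 V1 genes, the black line their median and orange dashed lines the 5 genes with a gene-class symbol nearest to that median. The median is lowest in SIN replicate 1 at -0.38, at -0.23 in SIN replicate 2 and -0.20 in N2 replicate 1, and at 0.23 to 0.30 in the other libraries.

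The genes whose course over the 6 libraries was most like that of the V1 genes were rps-0 and nduf-5. Likeness was measured as the root-mean-square distance, in log2 units over the 6 libraries, between a gene's mean-centred log2 CPM and the median of the 8. The 5 nearest genes with a gene-class symbol were rps-0 and rps-22, which encode proteins of the small ribosomal subunit, nduf-5 and lpd-5, which encode subunits of respiratory complex I, and ech-5, of the enoyl-CoA hydratase family, at distances of 0.016 for rps-0 to 0.030 for lpd-5. Among the V1 genes vha-11 was nearest to the median of its own group (0.027, rank 3 of 15404) and vha-12 farthest (0.16, rank 1032). The V1 genes contributed to that median, so their own ranks are only a description. Levels of rps-0 were 1258 and 1421 CPM in SIN, 1982 and 2004 CPM in WT worms and 1446 and 2069 CPM in N2.

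Among themselves the V1 genes kept a similar order in all libraries. On the RPKM scale, which divides by gene length (here the length in the table, with TMM-scaled library sizes), vha-8 was first, vha-10 second, vha-11 seventh and vha-15 eighth in every library. In WT the RPKM were 368 ± 1.7 for vha-8 and 352 ± 15 for vha-10 (SD, n = 2). They were 204 ± 8.6 for vha-14, 191 ± 1.3 for vha-9, 178 ± 4.3 for vha-12 and 175 ± 2.0 for vha-13. They were 113 ± 0.34 for vha-11 and 77.1 ± 1.1 for vha-15. Levels of vha-12 and vha-13 overlapped between libraries of WT, and so did those of vha-8 and vha-10 in SIN, at 242 ± 15 and 240 ± 16 RPKM.

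The complex holds several copies of A, B, E and G and a single copy of C, D, F and H. The median RPKM of the genes for the multicopy subunits was 167 and 188 in the SIN libraries, 261 and 269 in the WT libraries and 187 and 269 in the N2 libraries. That of the genes for the single-copy subunits was 110 and 115.3 in SIN, 152 and 152 in WT and 112 and 162 in N2. The classes overlapped in every library, since vha-14 was above vha-12 and vha-13. The order, also at the top, depends on the length used. The exon bases of the Ensembl annotation give vha-9 518 bases where the table has 865, and vha-13 2333 where the table has 3293. With them the WT level of vha-9 was 319 RPKM and that of vha-13 247 RPKM, against 370 RPKM for vha-8. In SIN the means were then 251.2 RPKM for vha-10, 250.8 RPKM for vha-9 and 243.0 RPKM for vha-8. By library, vha-8 and vha-9 then ranked from 1 to 3 and vha-10 from 1 to 2, while vha-11 stayed at 7 and vha-15 at 8.

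The share of vha-12 in the summed V1 RPKM was 8.85% ± 0.75 in SIN, 10.7% ± 0.40 in WT and 11.1% ± 0.84 in N2 (SD, n = 2 each). That of vha-9 was 13.4% ± 1.1 in SIN, 11.5% ± 0.07 in WT and 11.6% ± 0.16 in N2. SIN libraries thus lay outside the range of the other strains for both genes. The next largest difference was in vha-14, at 13.3% ± 0.22 in SIN and 12.3% ± 0.36 in WT, and no test was made of shares.

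**Figure D4:**
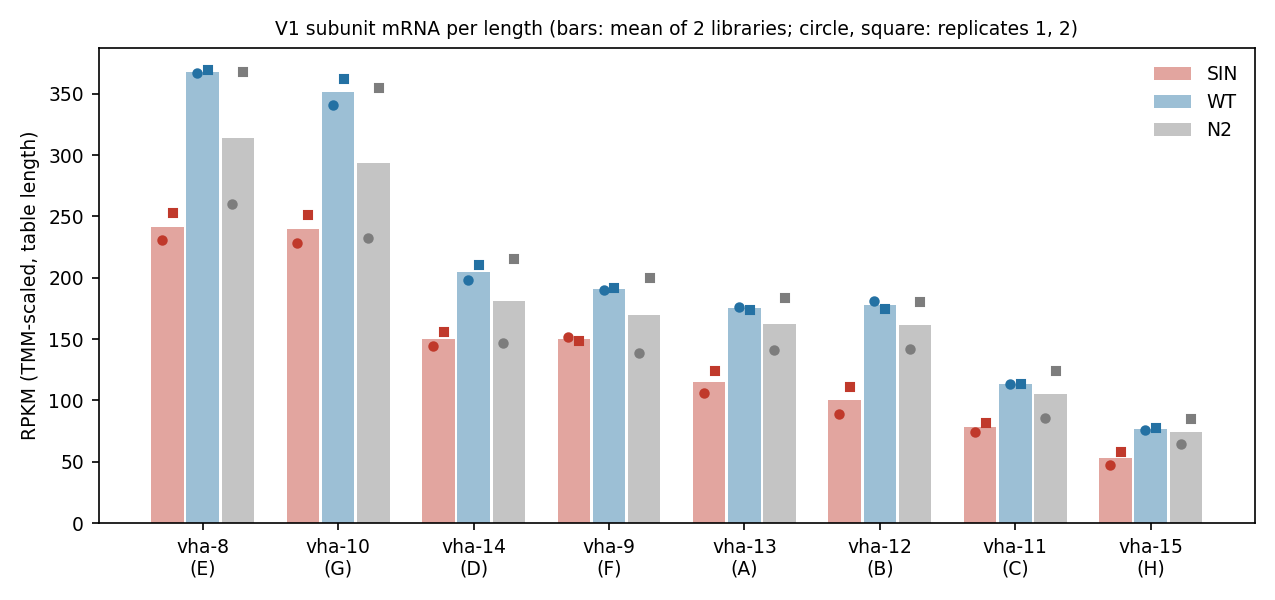
RPKM of the V1 genes (vertical axis, from 0; TMM-scaled, length as in the table) in SIN, WT and N2; bars are means of 2 libraries, circles replicate 1 and squares replicate 2. The genes vha-8 and vha-10 are highest in every library and vha-15 is lowest.

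The deposited small RNA values cover 6 of the 8 V1 genes. 22G RNAs are small RNAs that start with G and guide Argonautes such as CSR-1 to transcripts; the values come from other studies and describe genes, not these 6 libraries. Normalized 22G reads taken by the authors from a study by Claycomb are listed for these 6 and for 26.7% of tested genes. They are 114 for vha-13, 106 for vha-14, 65.6 for vha-11, 36.1 for vha-8, 35.0 for vha-9 and 29.4 for vha-10, as a score of unstated scaling, beside a median of 97.8 over the 4133 genes listed. The same 6 have 22G RNA in a CSR-1 immunoprecipitate from a study by Conine, at 23.9 RPM (vha-11) to 52.3 RPM (vha-14), with a median of 36.9 RPM over the 5517 genes listed. Values of that study are listed for 34.1% of tested genes. Enrichment scores of the 6 in that precipitate, deposited as a fraction between 0 and 1, run from 0.765 for vha-8 to 0.884 for vha-10. Their median is 0.827, beside a median of 0.859 and a lowest score of 0.667 over the 5517 genes listed.

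Relative to their transcripts these V1 genes have few 22G reads. The authors' deposited ratio of 22G reads to WT RPKM is 0.0865 for vha-10 and 0.101 for vha-8, and 0.672 for vha-13, the highest of the 6, against a median of 1.90 over all genes with a finite ratio. The 2 genes with no listed 22G value in either study, vha-12 and vha-15, are the pair on chromosome X. In SIN versus WT their log2 fold changes were -0.83 and -0.54, and those of the 6 listed V1 genes ran from -0.61 to -0.34. Of the listed V1 genes 2 of 6 fell and of the unlisted 2 of 2; over all tested genes 26.6% of those with listed Claycomb reads and 8.46% of those without fell. The median over all tested genes was -0.16 for those with listed Claycomb reads and 0.15 for those without.

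The deposited germline classes mark 6 of the 8 V1 genes, all but vha-10 and vha-15, as germline expressed, and 30% of tested genes. Only vha-13 is marked germline specific (6.86% of tested genes), and none of the 8 germline enriched (17.6% of tested genes).

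A second gene exists in the worm for the H subunit, vha-18, and for the B subunit, spe-5, which is needed in sperm. Levels of vha-18 were 117 and 99.6 CPM in SIN, 128 and 118 CPM in WT worms and 97.5 and 104.2 CPM in N2. Those of spe-5 were 15.1 and 13.2 CPM in SIN, 15.9 and 13.4 CPM in WT worms and 13.4 and 11.4 CPM in N2. Neither passed in any comparison; in SIN versus WT the log2 fold changes were -0.18 ± 0.11 (adjusted p = 0.260) and -0.05 ± 0.18 (adjusted p = 0.861), and that of spe-5 was 0.08 with upper-quartile scaling. Both genes are marked germline enriched. Whether they differ from vha-15 and vha-12 in their response was not tested. On the RPKM scale, with the length in the table, vha-18 was at 73.7 ± 8.6 in SIN, 83.4 ± 4.5 in WT and 68.5 ± 3.2 in N2. With that length vha-15 was at 52.9 ± 7.6 in SIN, 77.1 ± 1.1 in WT and 74.4 ± 15 in N2 (SD, n = 2 each). The Ensembl annotation gives vha-15 1767 exon bases where the table has 2253, and vha-18 1474 where the table has 1473. With the annotation length vha-15 was at 67.4 RPKM in SIN, 98.3 RPKM in WT and 94.9 RPKM in N2, and so lay above vha-18 in WT.

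The V0 sector, which carries protons through the membrane, had 3 genes that fell in SIN versus WT, 1 that rose and 6 that did not pass, with a median log2 fold change of -0.42. Over all tested genes 13.3% fell and 12.1% rose. The falls were vha-3 (1.69-fold, adjusted p = 0.0363) and vha-1 (1.42-fold, adjusted p = 0.0383), which encode ring proteolipids, and vha-6 (1.82-fold, adjusted p = 0.0451), the a subunit of the gut. By library vha-6 had 99.3 and 129 CPM in SIN, 189 and 227 CPM in WT worms and 123 and 188 CPM in N2. With upper-quartile scaling, which called 23.1% of all genes, 0 V0 genes fell and 1 rose. The calls of vha-1, vha-3 and vha-6 depended on the libraries in the fit, and each was kept in 7 of 12 alternatives. Over these their log2 fold changes ran from -0.55 to -0.37, from -0.90 to -0.62 and from -1.07 to -0.69. The transcripts vha-2 and vha-3 encode close copies of the proteolipid, so their reads may be divided between them; vha-2 had a log2 fold change of -0.45 ± 0.15 (adjusted p = 0.0744).

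The V0 gene that rose was unc-32, an a subunit gene known for its role in neurons. It had 387 and 376 CPM in SIN, 221 and 225 CPM in WT worms and 259 and 228 CPM in N2. Both SIN libraries were above all 4 others. It was 1.71-fold higher than WT (log2 fold change 0.78 ± 0.09, adjusted p = 0.0041) and 0.65 ± 0.09 above N2 (adjusted p = 0.00607). Over its alternatives in SIN versus WT the adjusted p ran from 1.56e-09 to 0.0693, and 10 of 12 kept the call; it was lost without WT replicate 1 or WT replicate 2. Among the V-ATPase genes here unc-32 has the most listed 22G reads, 294, and 194 RPM in the CSR-1 immunoprecipitate. The deposited classes mark unc-32 as germline expressed, but not as germline specific or germline enriched.

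The remaining V0 genes did not pass in SIN versus WT. The a subunit genes vha-5 and vha-7 had log2 fold changes of -0.54 ± 0.36 and 0.04 ± 0.09, and vha-4, vha-16 and vha-17, which encode the c'', d and e subunits, had -0.24 ± 0.13, -0.40 ± 0.13 and -0.31 ± 0.14. In SIN versus N2, unc-32 was the V0 gene past the test, and in WT versus N2 none was.

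Among partners of the pump, the accessory subunit gene vha-19 fell in SIN, with 192 and 202 CPM in SIN, 267 and 269 CPM in WT worms and 238 and 243 CPM in N2 (1.36-fold below WT, adjusted p = 0.0118), a call lost without any 1 of the SIN or WT libraries. Its libraries did not overlap between any of the strains. In SIN versus N2 vha-19 also fell (log2 fold change -0.29 ± 0.08, adjusted p = 0.0393), a call kept in 4 of 12 alternatives. The genes rbc-1 and rbc-2 encode the worm rabconnectins, which in other animals help V1 join V0. They had log2 fold changes of -0.01 ± 0.19 and -0.26 ± 0.13 in SIN versus WT, neither past the test, and rbc-1 was at 0.13 with upper-quartile scaling. In SIN versus N2, rbc-2 fell 1.54-fold, to 44.0 and 47.8 CPM in SIN, against 78.7 and 62.2 CPM in N2 (adjusted p = 0.0206), a call lost with only these 2 strains or without any 1 of the SIN or WT libraries. Of the transcription factor genes hlh-30 and mxl-3, which act on lysosomal genes, and nhr-31, which acts on V-ATPase genes of the excretory cell, 0 passed in SIN versus WT, where 0 of the 3 also passed at an unadjusted p under 0.05 and 0 with DESeq2. In SIN versus N2 their log2 fold changes were -0.79 ± 0.27, -1.38 ± 0.39 and -0.45 ± 0.37 (adjusted p = 0.0792, 0.0524 and 0.402). In WT versus N2 they were -0.51 ± 0.27, -1.47 ± 0.40 and -0.08 ± 0.36, and again 0 passed. The N2 libraries had 67.9 and 38.4 CPM for hlh-30 and 34.1 and 82.0 CPM for mxl-3.

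The F-type ATP synthase of mitochondria is the rotary relative of the V-ATPase. Of its 9 tested genes 7 fell in SIN versus WT, 0 rose and 2 did not pass, with a median log2 fold change of -0.66, or 4 that fell and a median of -0.52 with upper-quartile scaling. The genes with the smallest p were asg-1, asb-1, atp-2 and atp-3, at 1.95-fold, 1.89-fold, 1.76-fold and 1.55-fold lower. The gene atp-2, which encodes the catalytic beta subunit, had 1320 and 1485 CPM in SIN, 2473 and 2466 CPM in WT worms and 2089 and 2500 CPM in N2. Here too N2 replicate 1 was below N2 replicate 2. The adjusted p was 0.00708 for asg-1, 0.00969 for asb-1, 0.0102 for atp-2 and 0.0181 for atp-3. Without WT replicate 1 a single one of the 9 passed, 0 passed without SIN replicate 1, SIN replicate 2 or WT replicate 2, and all 9 log2 fold changes stayed negative. In SIN versus N2, 5 of the 9 fell.

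Of 14 tested genes for lysosomal enzymes and membrane proteins, which work in the compartment the pump acidifies, 3 rose in SIN versus WT, 0 fell and 11 did not pass. Their median log2 fold change was 0.09, beside 0.04 over all tested genes. In SIN versus N2, 1 rose (asp-4, adjusted p = 0.0108) and 2 fell (lmp-1, adjusted p = 0.0239, and the lysosomal transporter gene laat-1, adjusted p = 0.0245). The aspartyl protease gene asp-4 had 554 and 589 CPM in SIN, against 332 and 301 CPM in WT (1.80-fold higher, adjusted p = 0.00367). The cathepsin B-like gene cpr-6 had 1070 and 1151 CPM in SIN, against 862 and 782 CPM in WT (adjusted p = 0.0296), and ncr-2, a homolog of the Niemann-Pick C1 gene, was low, with 2.65 and 3.26 CPM in SIN against 1.34 and 1.197 CPM in WT (adjusted p = 0.0295). In SIN versus WT the lysosomal membrane gene lmp-1 had a log2 fold change of -0.33 ± 0.11 (adjusted p = 0.0649). Leaving out WT replicate 2 left 0 calls in this list, and leaving out SIN replicate 1, SIN replicate 2 or WT replicate 1 left 1.

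The pump is also known to take part in amino acid sensing by TORC1 at the lysosome. Of 4 TORC1 genes, 2 fell in SIN versus WT: ragc-1, a Rag GTPase gene, with 146 and 136 CPM in SIN against 206 and 215 CPM in WT (adjusted p = 0.00677), and let-363, which encodes the TOR kinase, with 160 and 166 CPM in SIN against 209 and 212 CPM in WT (adjusted p = 0.0265). The Raptor gene daf-15 and the Rag GTPase gene raga-1 had log2 fold changes of -0.21 ± 0.10 and 0.09 ± 0.10 and did not pass (adjusted p = 0.156 and 0.566). With upper-quartile scaling or without SIN replicate 1, 1 of the 4 passed, and 0 did without SIN replicate 2, WT replicate 1 or WT replicate 2.

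**Figure D5:**
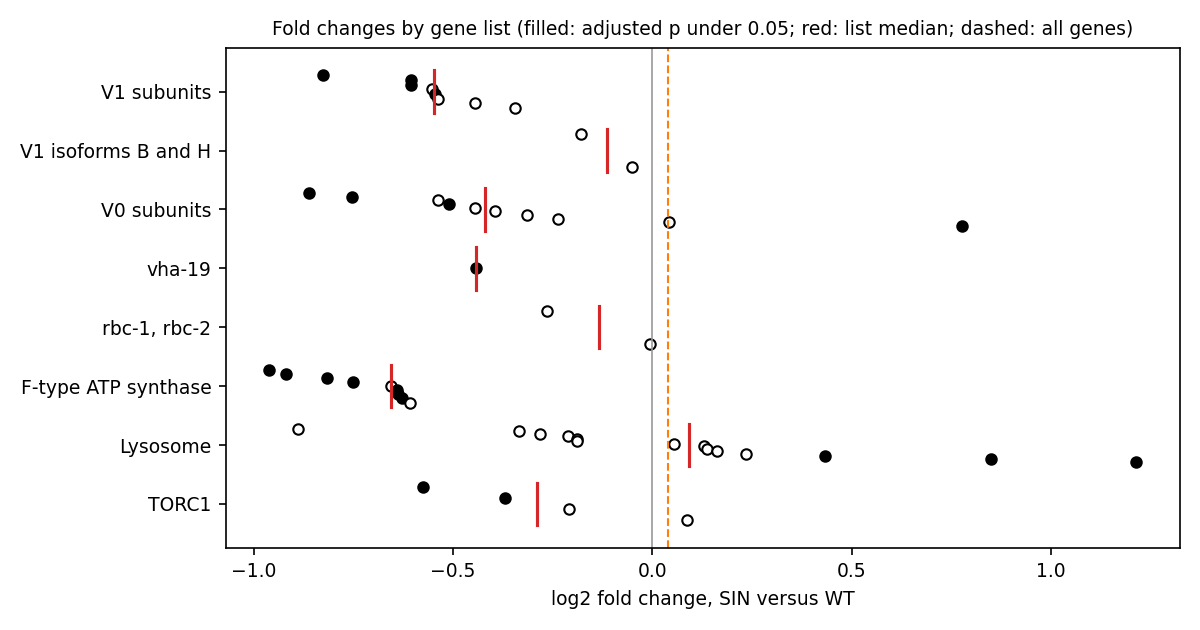
Log2 fold change in SIN versus WT (horizontal axis) of the genes of 8 lists (rows); each point is a gene, filled where adjusted p is under 0.05, red lines are list medians and the dashed line the median of all tested genes. V1 genes lie between -0.83 and -0.34, V0 genes between -0.86 and 0.78 with unc-32 as the only filled point to the right among the pump's genes, and all 9 ATP synthase genes lie below -0.60.

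Summed markers of the epidermis and of muscle were lowest in SIN replicate 1 and N2 replicate 1, which were also 2 of the 3 libraries with the lowest V1 sum. The epidermis list (5 genes, 4 tested, most of its counts from the adult collagen gene col-19) summed to 283 and 684 CPM in SIN, 775 and 1146 CPM in WT worms and 297 and 1224 CPM in N2, and 0 of its genes passed in any comparison; rol-6 was at 0 in 1 or more libraries. The 5 muscle genes summed to 1244 and 2054 CPM in SIN, 1914 and 2210 CPM in WT worms and 1182 and 2528 CPM in N2, and 0 passed. Some low genes of both lists went against these sums: dpy-7, rol-6 and hlh-1 were highest in N2 replicate 1, at 8.80, 0.454 and 4.82 CPM. In SIN versus WT the log2 fold changes were negative for 2 and positive for 2 tested epidermis genes (dpy-7, 2.79 ± 1.51). They were negative for 4 and positive for 1 of the muscle genes (hlh-1, 0.81 ± 0.61). The excretory cell list, 5 genes, took another course and summed to 32.6 and 43.3 CPM in SIN, 56.8 and 53.1 CPM in WT worms and 59.1 and 54.2 CPM in N2, where N2 replicate 1 was the highest library. In SIN versus WT the log2 fold changes of exc-5, exc-9, ceh-6 and let-653 were positive, at 0.10 to 0.57, none past the test, and the median of the list was 0.14. The most abundant gene of the list in every library, aqp-8, a water channel gene of the excretory canal, had 15.01 and 25.4 CPM in SIN against 42.0 and 38.1 CPM in WT and was the 1 gene of the list that fell (adjusted p = 0.0378); 0 fell with upper-quartile scaling or without SIN replicate 1, WT replicate 1 or WT replicate 2.

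Other tissue lists took other courses. The 11 gut genes, most of whose counts come from yolk protein genes, summed to 38449 and 47186 CPM in SIN, 35652 and 34387 CPM in WT worms and 46622 and 38487 CPM in N2, while the gut actin gene act-5 had 106 and 176 CPM in SIN, 322 and 362 CPM in WT worms and 152 and 337 CPM in N2. Of the gut genes 1, ges-1, rose in SIN versus WT and 0 fell, and act-5 did not pass (adjusted p = 0.0776). Log2 fold changes in that comparison were positive for 8 of the 11 gut genes and negative for 3, with a median of 0.15. The 6 germline genes summed to 5317 and 5460 CPM in SIN, 5116 and 4970 CPM in WT worms and 4430 and 4430 CPM in N2, with 1 that rose and 3 that fell in SIN versus WT, or 2 that rose and 0 that fell with upper-quartile scaling. The sum hides opposite courses: glh-1, which rose, had 1480.5 and 1764 CPM in SIN, 514 and 548 CPM in WT worms and 297 and 364 CPM in N2. In SIN versus WT the log2 fold changes of this list were negative for 4 genes and positive for 2, with a median of -0.23. The 5 neuron genes summed to 68.9 and 73.7 CPM in SIN, 55.0 and 58.6 CPM in WT worms and 66.9 and 58.1 CPM in N2, and 1 of them, unc-104, rose in SIN versus WT. The 5 sperm genes summed to 15.03 and 15.6 CPM in SIN and 4.90 to 6.92 CPM in the WT and N2 libraries, with peel-1 at 0 in some, and 2 of the 4 tested rose in SIN versus WT. The 5 embryo genes summed to 4.04 and 3.77 CPM in SIN, 7.07 and 6.90 CPM in WT worms and 15.6 and 7.64 CPM in N2, with med-2 at 0 in some. The part of these tissues in the V1 results was not tested.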

How the data were processed

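The authors deposited 1 gene table with raw read counts for each of the 6 libraries, per the file headers. The tools listed in the submitters' processing notes are STAR, HTSeq, DESeq and DESeq2, with no role or version, and the build listed is WBcel235. Per the labels' protocols, input was 500 ng of RNA, the mRNA kit preserves strand, and reads are single and 50 bases long. The deposited RPKM is a strain mean that the deposited counts and lengths give back for 100% of genes (relative tolerance 1e-06); RPKM in the report were computed per library with TMM scaling. Per the file headers, the table also holds the authors' log2 fold changes and adjusted p-values for SIN over WT, a 22G score, the ratio of 22G to RPKM, 22G RPM, an enrichment fraction and class marks.

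A robust quasi-likelihood fit with edgeR 4.0.16 used the counts of all 6 libraries with 3 strain means, TMM scaling and filterByExpr (minimum count 10, minimum total 15), leaving 3 residual degrees of freedom. Benjamini-Hochberg adjustment ran over the 15404 genes of each comparison, at a threshold of 0.05, and "rose" and "fell" refer to genes past it. Counts were simulated for SIN versus WT over 15404 genes, 200 of them changed, with a biological coefficient of variation of 0.15. That is below the common value of 0.219 estimated from these libraries. The fit called 37 of 50 genes lowered to 0.5 of their level and 5 of 50 lowered to 0.67. In the real libraries 25.5% of genes were called in SIN versus WT, so the adjustment cuts at another p. The simulated counts therefore do not give the power of the fit in these libraries. Alternatives were RLE and upper-quartile scaling, no filter, DESeq2 1.42.0, a replicate block, only the strains compared, and each library left out; annotation lengths for RPKM were added after seeing the data.

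The members and gene lists were chosen with earlier results of these data known. Named are all V1, V1 isoform, V0, accessory, assembly and regulator genes, the 4 with the smallest p in SIN versus WT of the lysosome, TORC1 and ATP synthase lists, the 5 nearest genes and csr-1. Genes picked after their values were seen are act-5, aqp-8, the other excretory genes, laat-1, col-19, ges-1, unc-104, glh-1, dpy-7, hlh-1 and markers at 0. The list genes vha-20, atp-1 and opt-2 have no row under those names. The V1 genes had 4475 counts or more in every library.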

Additional observations from a re-analysis of the deposited data

How the results depend on the processing

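In SIN versus WT the direction of all 8 V1 genes held under all 12 alternatives, while the number called moved: from 4 to 1 with upper-quartile scaling, 8 without the low-count filter, 6 with DESeq2, 7 with the replicate block, 8 with only the 2 strains, and 0 to 8 with a library left out (0 without any 1 of the SIN or WT libraries, 8 without either N2 library). Genes called in all were 6521 with only the 2 strains, against 3922, and 361 to 6751 with a library left out. In SIN versus N2 the V1 calls were 6 without the filter, 3 with DESeq2, 3 with the replicate block, 0 with only the 2 strains and 0 to 8 with a library left out; genes called in all were 5922 without the filter, 1914 with only the 2 strains and 704 to 6028 with a library left out, against 3942. In WT versus N2 the 17 genes called became 29 with RLE scaling, 10 with upper-quartile scaling, 2217 without the filter, 1164 with DESeq2, 253 with the replicate block, 0 with only the 2 strains, and 0 to 4201 with a library left out, and V1 calls ran from 0 to 6. The cause was not tested. As shares of all genes, the SIN versus WT calls were 23.1% with upper-quartile scaling, 23.55% without the filter, 27.9% with DESeq2 and 31.8% with the replicate block. In SIN versus N2 they were 24.2% without the filter, 27.7% with DESeq2 and 31.9% with the replicate block.

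Directions turned for 3 V1 genes in SIN versus N2 when a library was left out, with log2 fold changes of -0.42 to 0.11 for vha-9, -0.58 to 0.041 for vha-10 and -0.53 to 0.027 for vha-14. In WT versus N2 they ran from -0.070 to 0.46 for vha-9, -0.014 to 0.61 for vha-10, -0.13 to 0.41 for vha-11, -0.022 to 0.33 for vha-12, -0.066 to 0.32 for vha-13, -0.076 to 0.48 for vha-14 and -0.14 to 0.27 for vha-15, which was also at -0.0014 with upper-quartile scaling. In each case the lowest and highest values come from leaving out the N2 libraries.

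Whether equal replicate numbers mark a shared culture or day is not said in the labels, so what same-numbered samples share is not known. Deviations of same-numbered libraries from their strain means correlated with r = 0.344 for SIN and WT, 0.377 for SIN and N2 and 0.236 for WT and N2. In SIN versus WT the replicate block added calls of vha-10 (adjusted p = 0.0261), vha-11 (0.0266) and vha-14 (0.0399) with edgeR, and vha-9 did not pass (0.121). With 2 libraries a strain, each call rests on the spread of few libraries.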
